A study of Mus musculus with 9 samples.

Results

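The Fanconi, recombination and DNA repair genes are 41 genes named by symbol, out of 47643 genes in the count table. All 41 were found in the table and all 41 had enough counts to be tested, among 18205 genes tested in all. They were listed by name and function, with earlier results of these data known but without a threshold on any value, and fall into 5 classes: 10 Fanconi genes, 19 genes of homologous recombination, 6 of end joining, 2 of mismatch repair and 4 of the checkpoint. Their RNA was measured in donor-derived long-term hematopoietic stem cells (LT-HSCs), sorted as lineage-negative cells with cKit, Sca1 and CD150 and without Flk2 and CD48, of mice that carried or lacked the class IA PI3-kinase genes, to ask how the stem cell transcriptome differs between the genotypes. Each genotype had 3 libraries. WT donors were WT;Mx1-Cre. δKO donors were Pik3ca lox/lox;Pik3cb lox/lox;Pik3cd-/-, without Cre, so only Pik3cd was lost, in the germline. TKO donors had the δKO alleles plus Mx1-Cre, which is switched on by polyI;polyC (pIpC) and then excises Pik3ca and Pik3cb. All donors were C57BL/6, and all marrow went into lethally irradiated B6.SJL recipients of 6 to 8 weeks of age that received 2 injections of 250 μg pIpC 48 hours apart, the δKO recipients included. LT-HSCs were sorted 4 weeks later from marrow that was stated to be pooled from 7 recipients in each group. The δKO donors were littermates of the TKO donors and differ from them by Mx1-Cre as well as by what it excises, whereas the WT donors carry Mx1-Cre without floxed alleles.

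The Fanconi pathway removes crosslinks between the strands of DNA: a core complex attaches ubiquitin to Fancd2 and Fanci at a stalled replication fork, nucleases held by Slx4 cut the crosslink free, and homologous recombination repairs the break. Most proteins of homologous recombination act on the copied sister strand in S and G2 phase, whereas end joining works throughout the cell cycle. In the hematopoietic system, inherited loss of Fanconi genes leads to bone marrow failure and to myelodysplasia, and stem cells are the population that is lost.

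Many repair genes are transcribed at the G1/S transition, and the stretch of DNA before their start often holds E2F-type motifs or CCAAT boxes. RefSeq windows on build GRCm38.p6, from 250 bases before the transcript start to 50 bases after it, were at hand for 32 of the 41 genes (35 windows). The motifs searched on both strands were the E2F-type TTTCCCGC, TTTCGCGC, TTTGCCGC and TTTGGCGC, the box CCAAT, and the CHR motifs TTTGAA and TTTAAA of mitotic promoters, none of which holds another. An E2F-type motif was present in 8 of the 35 windows (22.9%), against 2.26% of all windows and 3.75% of the windows of tested genes. CCAAT was present in 57.1% of the windows of repair genes, and in 37.4% both of all windows and of those of tested genes. CHR was present in 11.4% of the windows of repair genes, 27.6% of all windows and 20.2% of those of tested genes. The 7 genes with an E2F-type motif were Fancg, Bard1, Brca2, Rad51c, Xrcc6, Msh6 and Chek2, which come from every class. A match describes the letters of the window and is not a site or a cause. The 4 windows printed here belong to genes the results turn on: Brip1 and Fancg, whose TKO libraries all lay below the WT libraries, and Brca2 and Mre11a, which were among the genes with the smallest spread over the 9 libraries. E2F-type and CCAAT motifs are in capitals, on either strand, and each sequence reads 5′ to 3′ in the direction of the gene. Brip1 lies at chr11:86201144-86201443 on the minus strand and holds 3 CCAAT motifs, Fancg at chr4:43010252-43010551 on the minus strand with 1 E2F-type motif, Brca2 at chr5:150522371-150522670 on the plus strand with 1 E2F-type motif, and Mre11a at chr9:14784404-14784703 on the plus strand with 2 CCAAT motifs.
Brip1: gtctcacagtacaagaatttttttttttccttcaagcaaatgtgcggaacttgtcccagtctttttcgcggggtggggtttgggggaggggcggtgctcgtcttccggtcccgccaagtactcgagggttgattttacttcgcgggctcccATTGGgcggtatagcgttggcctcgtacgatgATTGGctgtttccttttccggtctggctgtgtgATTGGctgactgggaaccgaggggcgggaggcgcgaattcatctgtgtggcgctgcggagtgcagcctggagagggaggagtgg
Fancg: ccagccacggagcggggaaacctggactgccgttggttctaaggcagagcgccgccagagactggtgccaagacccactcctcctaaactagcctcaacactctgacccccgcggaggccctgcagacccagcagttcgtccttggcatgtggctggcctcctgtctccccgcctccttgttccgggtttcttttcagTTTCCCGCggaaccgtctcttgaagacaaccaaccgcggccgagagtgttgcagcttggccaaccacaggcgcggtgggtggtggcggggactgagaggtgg
Brca2: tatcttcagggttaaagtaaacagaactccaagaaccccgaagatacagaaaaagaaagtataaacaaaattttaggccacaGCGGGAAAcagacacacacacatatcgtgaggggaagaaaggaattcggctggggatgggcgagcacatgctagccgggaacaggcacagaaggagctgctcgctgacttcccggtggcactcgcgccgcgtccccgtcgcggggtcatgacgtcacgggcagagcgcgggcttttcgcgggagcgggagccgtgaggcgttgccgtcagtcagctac
Mre11a: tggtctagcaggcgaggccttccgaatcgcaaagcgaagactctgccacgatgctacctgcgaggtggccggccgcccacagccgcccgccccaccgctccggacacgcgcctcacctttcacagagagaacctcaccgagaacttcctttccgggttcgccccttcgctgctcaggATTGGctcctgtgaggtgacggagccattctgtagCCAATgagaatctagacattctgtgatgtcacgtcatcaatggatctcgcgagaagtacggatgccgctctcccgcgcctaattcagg

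Levels are given as CPM, the counts of a gene relative to the scaled total of its library, and levels of different genes are compared only as CPM per kilobase of exon. In WT LT-HSCs the most abundant repair transcripts per kilobase were Rad50, at 39.4 ± 5.797 CPM per kilobase (SD, n = 3), and Parp1, at 36.3 ± 6.82. Rad50 is the arm of the complex that tethers broken ends, and Parp1 marks breaks with poly(ADP-ribose). Next came the mismatch sensor Msh6 (26.4 ± 7.87) and the Ku subunit Xrcc5 (19.3 ± 5.34). The means of Rad50, Parp1, Msh6 and Xrcc5 each differed from the next by less than the sum of their SDs. Another 2 genes exceeded 10 CPM per kilobase, Mre11a (11.8 ± 1.04), the nuclease partner of Rad50, and the helicase Blm (10.3 ± 2.40). The highest Fanconi gene was the helicase Brip1, at 9.61 ± 0.839 CPM per kilobase, and the highest checkpoint gene was the kinase Atm, at 9.18 ± 0.979. From Mre11a down to Palb2 (1.98 ± 0.637), neighbours in the order also differed by less than the sum of their SDs, except that Chek2 (5.37 ± 0.126) was above Fanca (4.51 ± 0.2004), and Pms2 (4.01 ± 0.0548) above Atr (3.32 ± 0.233). The lowest was Lig4, the ligase of end joining, at 0.329 ± 0.192 CPM per kilobase, which rests on 493 counts over all 9 libraries.

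**Figure D1:**
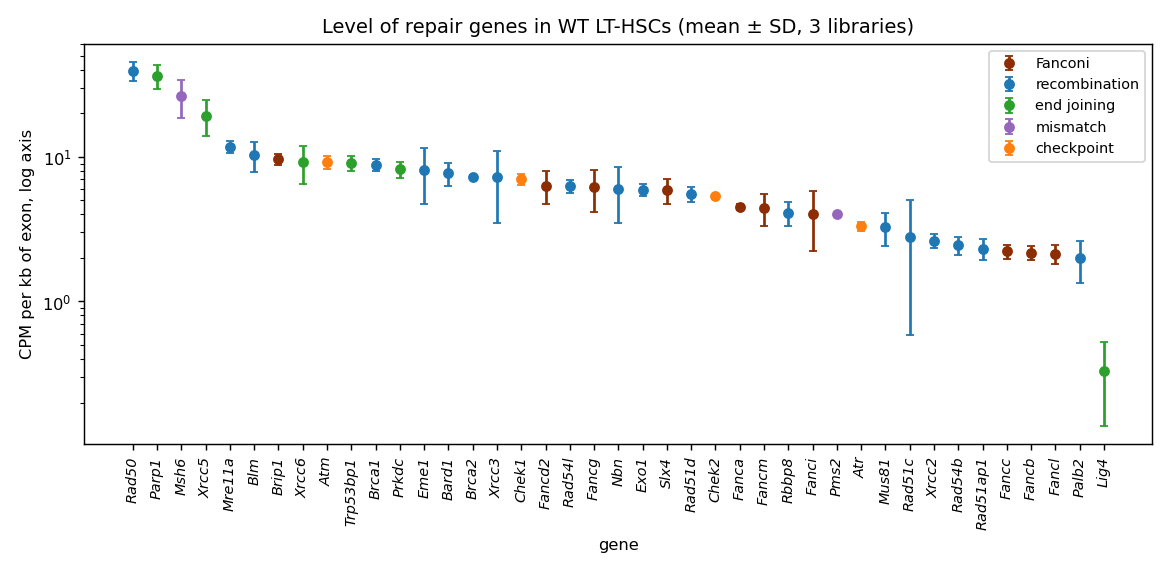
Level of each of the 41 repair genes in WT LT-HSCs, in CPM per kilobase of exon on a log axis, as the mean (points) and SD (bars) of 3 libraries, ordered by level and coloured by class. Rad50 and Parp1 lead at 39.4 and 36.3, and Lig4 stands below the rest at 0.329.

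The libraries held 31300343 to 60386097 counts, so that counting error was small beside the variation between libraries. δKO replicate 1 and the unnumbered δKO library, whose number in the count table matches no label, had fewer detected genes (18180 and 18500) than the other 7 libraries (19703 to 22703). Libraries of the same genotype had a Pearson correlation of log2 CPM of 0.954 to 0.957 in WT, 0.835 to 0.916 in δKO and 0.915 to 0.952 in TKO. Summed over 20 markers of HSCs the libraries held 2072 to 5254 CPM. Over 10 markers of T cells 8 libraries held 3.76 to 35.31 CPM and δKO replicate 1 held 87.4. In that library Lck was at 51.42 and Thy1 at 35.66 CPM. Cd3e, Cd3g and Cd8a were at 0 in all 9 libraries, and Cd3d was at 0 to 8.165 CPM. Xist, a transcript made by female cells, was at 32.1, 5340 and 45.6 CPM in WT replicates 1 to 3. It was at 6390 and 4910 CPM in δKO replicates 1 and 2 and at 59.5 in the unnumbered δKO library. In TKO replicates 1 to 3 it was at 4160, 3230 and 36.5 CPM. The level of Xist thus differed within and between the genotypes, and sex was not a term of the model.

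Between TKO and WT, no repair gene passed the call of an adjusted p under 0.05 and a change of more than 2-fold with edgeR, which called 0.00549% of all tested genes. DESeq2 on all 9 libraries also called 0 repair genes, against 0.649% of all genes. At an unadjusted p under 0.05 from edgeR, 0 repair genes were higher in TKO (1.68% of all genes) and 1 was lower, which is 2.44% of the 41 beside 2.5% of all genes. Of the 41 genes, 18 had a positive and 23 a negative log2 fold change, with a median log2 fold change of −0.04, beside 0.02 over all tested genes. In these bulk samples, fewer cells that make a transcript and less of it per cell cannot be told apart. The TKO and WT libraries did not overlap for 9 genes. Fancc and Atr were higher in all 3 TKO libraries, or 4.88% of the repair genes beside 6.88% of all genes. Fancd2, Fancg, Brip1, Bard1, Xrcc2, Blm and Mus81 were lower, or 17.1% of the repair genes beside 7.47% of all genes.

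Between TKO and δKO, edgeR again called 0 repair genes, and it called 0% of all tested genes. DESeq2 called 0 repair genes and 3.06% of all genes. By the same edgeR threshold on the unadjusted p, 0 repair genes were higher in TKO (4.6% of all genes) and 3 were lower, Slx4, Brip1 and Xrcc2, which is 7.32% of the 41 beside 5.56% of all genes. Here 12 genes were higher and 29 lower in TKO, with a median log2 fold change of −0.15 beside −0.06 for all genes. Without overlap between the libraries, 0 genes were higher (6.98% of all genes), and Fanci, Slx4, Brip1 and Xrcc2 were lower (9.76% beside 4.74% of all genes).

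Between δKO and WT, edgeR called 0 repair genes, against 0.00549% of all genes, and DESeq2 called 0, against 1.03% of all genes. Slx4 was the 1 repair gene that was higher in δKO at an unadjusted p under 0.05 from edgeR (2.44% beside 3.65% of all genes), and 0 were lower (3.36% of all genes). Of the 41 genes, 23 were higher and 18 lower, with a median log2 fold change of 0.05, the same as that of all genes (0.05). Slx4 and Exo1 were higher in all 3 δKO libraries than in any WT library (4.88% beside 4.13% of all genes), and 0 genes were lower without overlap (7.39% of all genes). The 3 comparisons share their libraries and are not independent of each other.

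**Figure D2:**
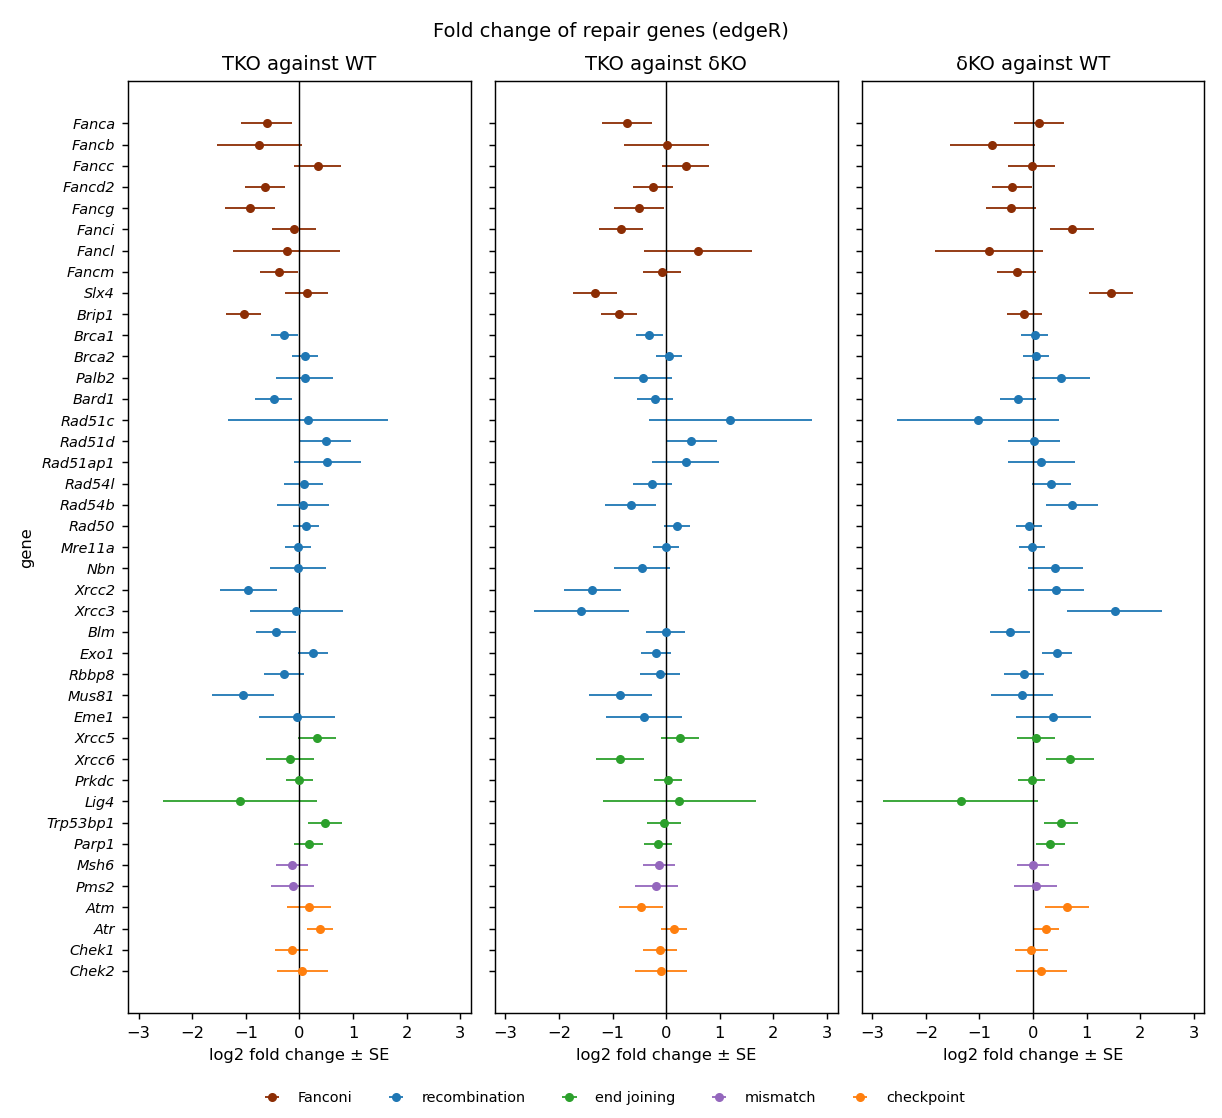
Log2 fold change of each repair gene in the 3 comparisons (points) with its standard error from edgeR (bars), coloured by class, with 0 marked by a line. The points lie on both sides of 0 in every comparison, and in TKO against WT 8 of the 10 Fanconi genes lie below it.

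In the Fanconi class, 8 of 10 genes were lower in TKO than in WT, with a median log2 fold change of −0.50 (−0.32 without WT replicate 1), and 7 of 10 were lower than in δKO, with a median of −0.38, which was −0.09 without the unnumbered δKO library. The medians of the other classes were between −0.13 and 0.12 against WT and between −0.21 and −0.01 against δKO, and with each library left out in turn they ranged from −0.22 to 0.174 and from −0.34 to 0.186. Brip1 (ENSMUSG00000034329.16, chromosome 11 of mm10, 86058138 to 86201193) encodes the helicase that binds Brca1. Its level in WT replicates 1, 2 and 3 was 76.7, 64.6 and 73.6 CPM. In δKO replicates 1 and 2 and the unnumbered δKO library it was 47.0, 66.1 and 79.3 CPM. In TKO replicates 1, 2 and 3 it was 42.5, 21.8 and 40.2 CPM, so that every TKO library was below all 6 others, as was the case for 1.69% of all tested genes. Against WT, the log2 fold change of Brip1 in TKO was −1.04 (SE 0.330, 95% interval −1.76 to −0.32, unadjusted p = 0.00864, adjusted p = 1 from edgeR) and −0.88 against δKO (SE 0.329, unadjusted p = 0.0207, adjusted p = 0.465). Fitted only to TKO and WT, DESeq2 gave −1.03 with an adjusted p of 0.0405 and called it, as 1 of 574 genes called by that fit. In 19 of 20 alternative settings no repair gene was called in TKO against WT. Without TKO replicate 2, the lowest library, edgeR gave −0.80 against WT.

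Slx4 (ENSMUSG00000039738.16, chromosome 16, 3979105 to 4003770), the scaffold that holds nucleases at a crosslink, was highest in δKO. It was measured at 53.8, 46.2 and 35.9 CPM in WT replicates 1 to 3. The δKO libraries held 210.3 CPM in replicate 1, 62.0 in replicate 2 and 102 in the unnumbered library. The TKO libraries held 53.1, 58.0 and 38.4 CPM. All 3 δKO libraries were above the 6 others, which overlapped among themselves. The log2 fold change was 1.46 in δKO against WT (SE 0.411, unadjusted p = 0.00418, adjusted p = 0.699 from edgeR) and −1.32 in TKO against δKO (SE 0.410, unadjusted p = 0.00754, adjusted p = 0.465). Without δKO replicate 1 these values were 0.85 and −0.72, and over the 19 alternative settings they ranged from 0.52 to 1.787 and from −1.649 to −0.662. In TKO against WT the log2 fold change of Slx4 was 0.14 (95% interval −0.74 to 1.02).

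No gene of the core complex and its targets had an unadjusted p under 0.05 from edgeR, although log2 fold changes were as large as −0.92 (Fancg against WT). DESeq2 on all 9 libraries gave an unadjusted p of 0.0283 for Fancg in TKO against WT (adjusted p = 0.54) and of 0.0383 for Fanci in TKO against δKO (adjusted p = 0.263). Fancg, a core subunit, was at 31.1, 23.0 and 16.1 CPM in WT, at 23.4, 11.8 and 17.6 in δKO and at 9.50, 12.3 and 15.3 in TKO. The TKO libraries of Fancg lay below the WT libraries but overlapped with δKO (log2 fold change −0.92 against WT, SE 0.466). Fancd2, which carries the ubiquitin that recruits the nucleases, was at 64.8, 41.6 and 44.5 CPM in WT, at 21.9, 40.5 and 53.1 in δKO and at 30.6, 28.8 and 37.9 in TKO. Its TKO libraries were also below the WT libraries only (−0.63, SE 0.372, and −0.41 without WT replicate 1). Its partner Fanci showed another pattern, with 35.0, 19.1 and 15.7 CPM in WT, 50.6, 27.0 and 38.6 in δKO and 23.8, 22.3 and 18.9 in TKO. Fanci was lower in TKO than in δKO without overlap (−0.84, SE 0.414, and −1.047 to −0.462 over 19 alternative settings). It was within the range of WT (−0.10, SE 0.411), and so differed from Fancd2 in where its libraries separated.

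The other Fanconi genes overlapped between TKO and both other groups, apart from Fancc. Fanca was at 37.6 to 41 CPM in WT, 24.9 to 69.0 in δKO and 14.1 to 41.6 in TKO, with the lowest value in TKO replicate 2. Fancm, the translocase that anchors the core complex on DNA, was at 33.5 to 56.1 CPM in WT, 28.0 to 49.5 in δKO and 27.3 to 46.8 in TKO. Fancc, another core subunit, was the 1 Fanconi gene with all TKO libraries above WT, at 27.2, 21.6 and 21.7 CPM against 19.1, 16.3 and 20.2, with δKO at 23.3, 21.7 and 9.51 (0.34 against WT, SE 0.438, and 0.22 without TKO replicate 1). Fancb, on the X chromosome, was low, at 5.68 to 6.90 CPM in WT, 1.32 to 6.20 in δKO and 2.26 to 5.70 in TKO. Fancl, the ubiquitin ligase of the core complex, was at 5.95 to 7.89 CPM in WT and 3.23 to 8.10 in TKO, but at 0.184 in the unnumbered δKO library, 45.9 times below its highest value of 8.46 in δKO replicate 2. Reads of Fancc, Fanci, Fancl and Fanca are uncertain to some degree, since 16.4%, 16%, 13.7% and 10.5% of their exon bases are shared with genes on the opposite strand, among them Polg, Vrk2 and Zfp276, and the counting was not stated to use the strand.

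**Figure D3:**
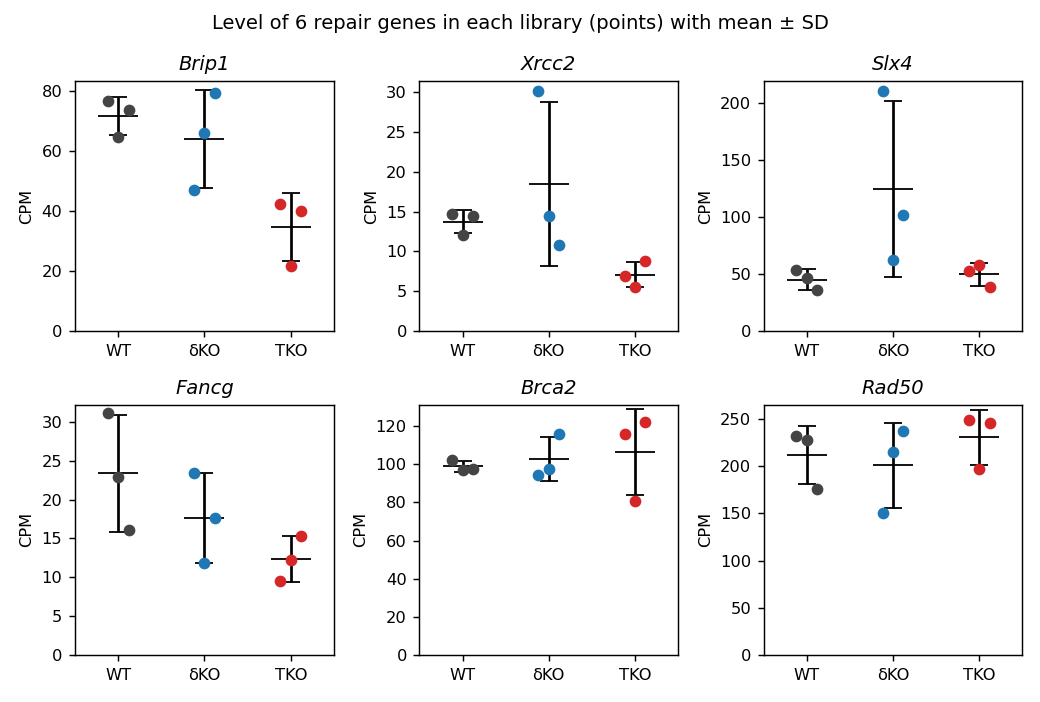
CPM of 6 repair genes in each library (points) with the mean and SD of each genotype (bars), on axes that start at 0. The TKO libraries of Brip1 and Xrcc2 lie below all 6 others, the δKO libraries of Slx4 lie above all others, TKO is below WT for Fancg, and Brca2 and Rad50 overlap in all 3 genotypes.

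Averaged over the Fanconi class, as the mean of log2(CPM + 1) after each gene was centred on its mean of the 9 libraries, all 3 TKO libraries were the lowest. The class level was 0.42, 0.09 and 0.04 in WT, 0.08, 0.04 and 0.03 in δKO and −0.17, −0.33 and −0.19 in TKO. Summed, the 10 genes held 235 to 265 CPM in TKO, 299 to 389 in WT and 297 to 451 in δKO. Without Brip1 the class level was still lowest in the TKO libraries, at −0.16, −0.23 and −0.17, against −0.03 or more in the 6 others. Restricted to the 8 genes of the core complex, Fancd2 and Fanci, it was −0.15, −0.25 and −0.11 in TKO, and the δKO libraries, at −0.10, 0.01 and −0.12, then overlapped with TKO. Without Slx4 and Brip1, TKO was thus separate from WT but not from δKO. Counted more widely, with Brca1, Brca2, Palb2, Rad51c and Xrcc2 of the recombination class added (15 genes), the level was −0.33, −0.115 and −0.259 in TKO. In the 6 others it was −0.003 or more. The levels of the 19 recombination genes overlapped among the genotypes, at −0.12 to 0.23 in WT, 0.03 to 0.16 in δKO and −0.31 to 0.12 in TKO. Over all 41 repair genes together the TKO libraries were also the lowest, at −0.126, −0.099 and −0.137, against −0.015 or more in the 6 others.

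Genes of mitosis also had their lowest levels in TKO, although their mean was higher in δKO than in WT. For a list of 22 genes of G2 and M phase, among them Mki67 and Plk1, the level was 0.44, 0.26 and −0.06 in WT, −0.19, 0.37 and 0.74 in δKO and −0.70, −0.29 and −0.56 in TKO, so all TKO libraries were again the lowest. All 22 genes were lower in TKO than in WT and than in δKO, with 0 called by edgeR. At an unadjusted p under 0.05 from edgeR there were 11 against WT (50% beside 2.5% of all genes) and 14 against δKO (63.6% beside 5.56%). DESeq2 on all 9 libraries called 1 and 4 of the 22 genes, against 0.649% and 3.06% of all genes. For 24 genes of DNA replication the level in TKO, at −0.22 to −0.01, overlapped with WT, at −0.06 to 0.08, and lay just below δKO, at −0.004 to 0.33. Of the 24 genes, 1 was lower at an unadjusted p under 0.05 from edgeR against WT (4.17% beside 2.5% of all genes) and 4 against δKO (16.7% beside 5.56%). Other lists also differed between the genotypes in these libraries. The 12 neutrophil markers summed to 5613 to 12960 CPM in WT, 285 to 13140 in δKO and 172 to 3451 in TKO, 12 of 12 lower in TKO than in WT with none at 0, and the 20 HSC markers were higher in TKO than in WT in 20 of 20. The part of cycling cells or of other cell types in the Fanconi values was not tested.

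**Figure D4:**
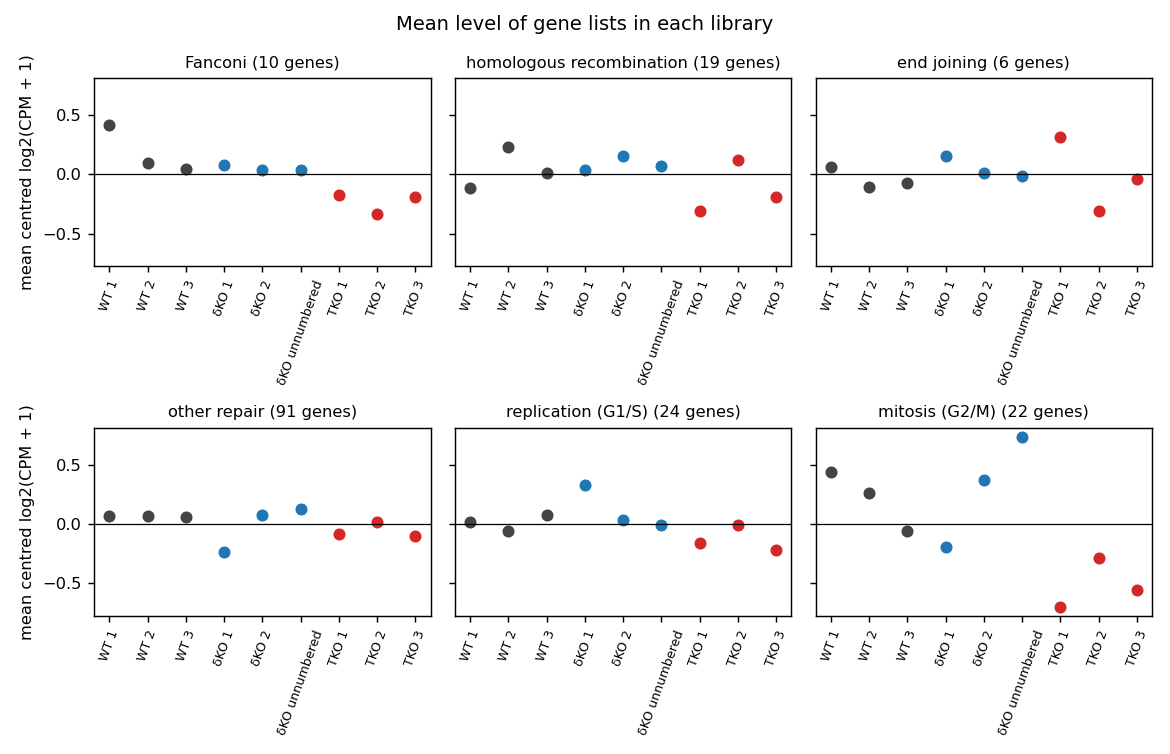
Mean level of 6 gene lists in each of the 9 libraries, as log2(CPM + 1) with each gene centred on its mean of the 9 libraries. The 3 TKO libraries (−0.17 to −0.33 for Fanconi and −0.29 to −0.70 for mitosis) are the lowest for the Fanconi and the mitosis lists, and overlap with both other genotypes for recombination and end joining. For other repair they lie below WT and overlap with δKO, and for replication they lie below δKO and overlap with WT.

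Among the genes of homologous recombination, TKO had higher values of 9 and lower values of 10 than WT (median log2 fold change −0.03), and higher values of 5 and lower values of 14 than δKO (median −0.21). Xrcc2 (ENSMUSG00000028933.11, chromosome 5, 25689812 to 25705825), which acts in homologous recombination, was the 1 gene of the class with an unadjusted p under 0.05 from edgeR, and DESeq2 added Mus81. In WT replicates 1 to 3 it was at 14.7, 12.02 and 14.5 CPM. In δKO it was at 30.1 CPM in replicate 1, 14.4 in replicate 2 and 10.8 in the unnumbered library. In TKO it was at 6.90, 5.58 and 8.77 CPM, below all 6 other libraries. Against δKO, the log2 fold change of Xrcc2 in TKO was −1.38 (SE 0.536, unadjusted p = 0.0248, adjusted p = 0.465 from edgeR) and −0.84 without δKO replicate 1. Against WT it was −0.96 (SE 0.531, unadjusted p = 0.0979, adjusted p = 1). The unadjusted p of DESeq2 on all 9 libraries was 0.0021 against δKO and 0.038 against WT, with adjusted p of 0.0581 and 0.593.

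Xrcc3 and Rad51c were among the most variable repair genes. Xrcc3 (chromosome 12, 111803192 to 111813873) was at 8.25, 27.6 and 23.9 CPM in WT, 141, 16.1 and 15.1 in δKO and 5.30, 30.02 and 21.95 in TKO. Its log2 fold change was 1.53 in δKO against WT (SE 0.884, adjusted p = 0.726 from edgeR), −1.59 in TKO against δKO (SE 0.886, adjusted p = 0.557) and −0.06 in TKO against WT (SE 0.866). Without δKO replicate 1, the 1 library at 141 CPM, the first of these turned to −0.35 and the second to 0.29. Rad51c ranged from 0.1995 CPM in δKO replicate 1 to 39.1 in TKO replicate 2, a ratio of 196, and each genotype held libraries both above 6 and below 2 CPM. Rad51d was at 18.0 to 22.7 CPM in WT, 12.6 to 34.3 in δKO and 16.9 to 38.6 in TKO.

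The genes that open and process a break were steadier. Rad50 (ENSMUSG00000020380.16, chromosome 11, 53649519 to 53707319) was at 232, 227 and 176 CPM in WT, 151, 215 and 237 in δKO and 248.6, 197 and 246 in TKO. The genotypes overlapped, and on the log2 scale TKO differed from WT by 0.12 (95% interval −0.41 to 0.65), from δKO by 0.20 (−0.33 to 0.73), and δKO from WT by −0.08 (−0.60 to 0.45). Mre11a was the steadiest repair gene of all, from 63.0 CPM in TKO replicate 3 to 76.4 in δKO replicate 2, a ratio of 1.21. Its intervals bound the difference to −0.56 to 0.50 on the log2 scale in TKO against WT and to −0.53 to 0.53 against δKO. Nbn, the third member of that complex, varied more, from 9.29 CPM in WT replicate 1 to 27.3 in δKO replicate 2. The resection factor Rbbp8 was at 40.2 to 58.8 CPM in WT, 24.5 to 60.3 in δKO and 30.5 to 52.1 in TKO. The exonuclease Exo1 was at 45.4 to 54.3 CPM in WT, 55.1 to 80.5 in δKO and 52.1 to 74.0 in TKO, and so was higher in every δKO library than in WT (0.45, SE 0.278, unadjusted p = 0.135, adjusted p = 0.734 from edgeR).

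The genes around Brca1 and Brca2 did not share a pattern. Brca2, a central protein of homologous recombination, was at 102, 97.0 and 97.4 CPM in WT, 94.6, 97.5 and 116 in δKO and 116, 80.7 and 122 in TKO, all overlapping (0.11 in TKO against WT, 95% interval −0.43 to 0.64). Brca1 was at 68.2 to 83.3 CPM in WT, 66.5 to 90.3 in δKO and 53.8 to 72.0 in TKO, with 2 of the 3 TKO libraries below all others (−0.28 against WT, SE 0.255). Bard1, the partner of Brca1 in a ubiquitin ligase, was at 36.2 to 52.3 CPM in WT and 29.1 to 33.1 in TKO, without overlap (−0.48, SE 0.337), but at 24.1 in the unnumbered δKO library. Palb2, which bridges Brca1 and Brca2, was at 9.19 to 17.7 CPM in WT, 14.2 to 32.1 in δKO and 8.94 to 24.5 in TKO.

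Among further genes of homologous recombination, Rad54l was at 43.5 to 54.1 CPM in WT, 45.8 to 91.0 in δKO and 35.3 to 69.7 in TKO, and 15.4% of its exon bases are shared with Lrrc41 on the opposite strand. Rad54b was at 12.7 to 16.3 CPM in WT, 14.2 to 34.7 in δKO and 9.82 to 20.1 in TKO, and it shares 35.8% of its exon bases with Fsbp on the same strand, so its counts may hold reads of that gene. Rad51ap1 was at 9.39 to 12.9 CPM in WT, 4.99 to 18.6 in δKO and 8.59 to 28.0 in TKO. Among the genes that resolve the joined strands, the helicase Blm was at 78.0 to 115 CPM in WT and 54.4 to 77.7 in TKO, without overlap (−0.44, SE 0.369, and −0.23 without WT replicate 2), and at 38.2 to 107 in δKO. Mus81, the catalytic part of a structure-specific nuclease, was at 9.29, 10.6 and 15.0 CPM in WT, 11.1, 12.5 and 6.64 in δKO and 4.44, 4.42 and 7.88 in TKO. The TKO libraries of Mus81 lay below WT (−1.06, SE 0.581, unadjusted p = 0.0943, adjusted p = 1 from edgeR) and overlapped with the unnumbered δKO library. For Mus81 the unadjusted p of DESeq2 on all 9 libraries was 0.0134 against WT and 0.042 against δKO, with adjusted p of 0.381 and 0.276. Its partner Eme1 was at 11.6 to 28.2 CPM in WT, 10.3 to 62.0 in δKO and 9.59 to 38.6 in TKO, and did not follow Mus81.

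In end joining, no gene had an unadjusted p under 0.05 from edgeR or DESeq2 and all overlapped between the genotypes. Parp1 (ENSMUSG00000026496.11, chromosome 1, 180568924 to 180601254) was at 233, 176 and 167 CPM in WT, 262, 169.8 and 289 in δKO and 261, 206 and 182 in TKO. Parp1 in TKO differed by 0.17 on the log2 scale from WT (95% interval −0.41 to 0.75) and by −0.15 from δKO (−0.73 to 0.43). Xrcc5 (ENSMUSG00000026187.8, chromosome 1, 72307421 to 72394952), a subunit of the Ku ring that binds broken ends, was at 34.7, 61.8 and 51.6 CPM in WT, 34.5, 56.6 and 63.2 in δKO and 70.3, 41.6 and 72.9 in TKO. It differed by 0.32 in TKO against WT (95% interval −0.45 to 1.09) and by 0.06 in δKO against WT (−0.71 to 0.83). The other Ku subunit, Xrcc6, did not vary with it and was at 27.7 to 50.9 CPM in WT, 33.8 to 118 in δKO and 32.03 to 46.0 in TKO, with its highest value in δKO replicate 1. Prkdc, the kinase that Ku recruits, was among the steady genes, at 93.5 to 120.3 CPM in WT, 81.8 to 126 in δKO and 85.2 to 124 in TKO. Trp53bp1, which protects ends from resection, was at 114 to 145 CPM in WT, 104 to 241 in δKO and 138 to 231 in TKO (0.48 in TKO against WT, SE 0.321, and 0.25 without TKO replicate 1), and 15% of its exon bases are shared with Tubgcp4 on the opposite strand. Lig4 was below 3 CPM in every library, with its lowest value, 0.0399, in δKO replicate 1 and its highest, 2.81, in WT replicate 1.

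Both mismatch repair genes overlapped between all genotypes. Msh6 (ENSMUSG00000005370.3, chromosome 17, 87975062 to 87990892) was at 154, 94.5 and 95.5 CPM in WT, 80.1, 112 and 152 in δKO and 95.1, 95.1 and 123 in TKO. On the log2 scale TKO differed from WT by −0.14 (95% interval −0.80 to 0.53) and from δKO by −0.13 (−0.79 to 0.53). Pms2 (ENSMUSG00000079109.11, chromosome 5, 143909964 to 143933968), an endonuclease subunit, was at 32.8, 32.1 and 32.8 CPM in WT, 47.3, 35.8 and 18.4 in δKO and 38.7, 20.8 and 29.99 in TKO. The WT libraries of Pms2 agreed to within 1 CPM, whereas the δKO libraries spanned a ratio of 2.57.

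Of the checkpoint kinases, Atm (ENSMUSG00000034218.15, chromosome 9, 53439149 to 53536740), which answers to double strand breaks, was at 98.2, 103 and 83.5 CPM in WT, 262, 95.3 and 87.8 in δKO and 113, 69.8 and 139 in TKO. Only δKO replicate 1 stood apart, and the log2 fold change in δKO against WT went from 0.64 (SE 0.411, adjusted p = 0.743 from edgeR) to −0.05 without it. In TKO against WT it was 0.18 (95% interval −0.72 to 1.07). Atr, which answers to stalled forks, was at 74.7, 84.6 and 75.7 CPM in WT, 105, 98.0 and 75.2 in δKO and 117, 98.0 and 91.8 in TKO. The TKO libraries of Atr were all above WT and overlapped with δKO (0.39 against WT, SE 0.242, unadjusted p = 0.138, adjusted p = 1 from edgeR). Chek1 (ENSMUSG00000032113.15, chromosome 9, 36708482 to 36727065), the effector kinase of Atr, was at 35.4, 31.6 and 30.2 CPM in WT, 36.3, 32.5 and 26.5 in δKO and 32.03, 27.6 and 28.3 in TKO. Its highest value was 1.37 times its lowest, and on the log2 scale TKO differed from WT by −0.15 (95% interval −0.83 to 0.54) and δKO from WT by −0.03 (−0.71 to 0.66). Chek2, the effector of Atm, was at 15.7 to 16.5 CPM in WT, 8.26 to 23.8 in δKO and 14.4 to 19.9 in TKO.

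**Figure D5:**
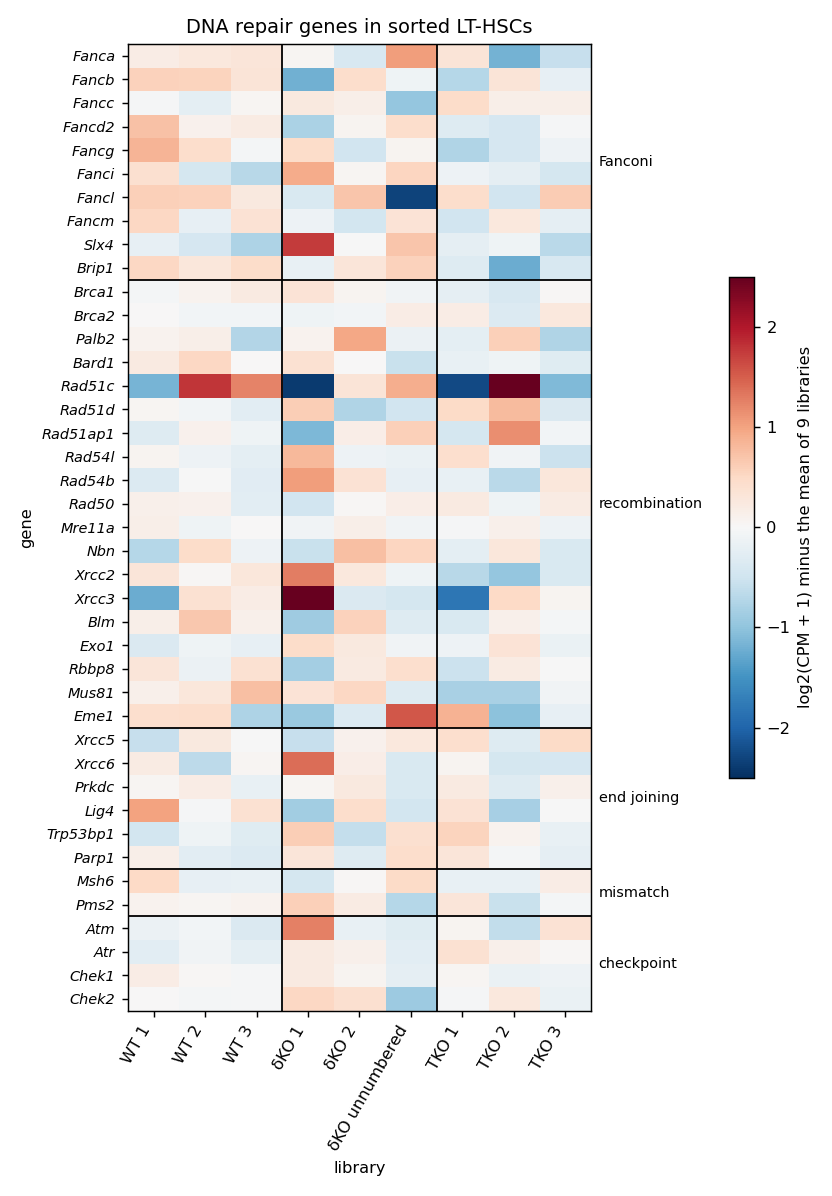
Level of the 41 repair genes (rows, grouped by class) in the 9 libraries (columns, grouped by genotype), as log2(CPM + 1) minus the mean of the gene over the 9 libraries, with red above and blue below that mean. The strongest colours are in Rad51c, Xrcc3, Fancl and Slx4, and Brip1 and Xrcc2 are below the mean in all 3 TKO libraries.

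The spread of the repair genes between libraries was close to that of other genes at a like level, or somewhat smaller. The median ratio of the highest to the lowest library was 1.74 for the 7 repair genes at a mean of 100 CPM or more, against 2.11 for all tested genes at that level. It was 2.11 for the 9 repair genes from 50 to below 100 CPM, against 2.54, and 2.76 for the 10 from 25 to below 50 CPM, against 3.26. For the 11 repair genes from 10 to below 25 CPM it was 3.53, against 5.22, and for the 4 below 10 CPM it was 25.6, against 23.6 for such genes with no library at 0. The median biological coefficient of variation from edgeR was 0.274 for the repair genes and 0.281 for all genes at 100 CPM or more, and 0.49 and 0.539 from 10 to below 25 CPM. These bands were chosen after the values were seen. For 10 genes the highest library was less than 2 times the lowest, among them Mre11a (1.21), Chek1 (1.37), Brca2 (1.52), Prkdc (1.54), Atr (1.57), Rad50 (1.65) and Brca1 (1.68). For 4 genes it was at least 10 times the lowest, namely Xrcc3 (26.6), Fancl (45.9), Lig4 (70.3) and Rad51c (196). Across the 41 genes Spearman's rho of the mean CPM and this ratio was −0.62, a description over genes that share the same libraries. A single library, δKO replicate 1, held the highest value of 14 of the 41 genes (34.1%, beside 23.7% of all tested genes) and the lowest of 10 (24.4%, beside 25.9% of genes with no library at 0). TKO replicate 2 held the lowest value of 9 (22%, beside 12.8% of such genes), Brip1 among them. Slx4, Xrcc2, Xrcc3, Xrcc6 and Atm were among the 14 that were highest in δKO replicate 1. Of the 9 libraries, δKO replicate 1 had the fewest genes detected and the lowest scaling factor, and the part of either in these values was not tested.

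A further list of 92 genes of repair, signalling and lesion bypass that are not among the 41 was compared in the same fit, and 91 of them were tested. In TKO, 41 were higher and 50 lower than in WT and 29 were higher and 62 lower than in δKO, which is 68.1% lower beside 70.7% of the 41 genes and 52.8% of all genes. At an unadjusted p under 0.05 from edgeR, 0 were higher (1.68% of all genes) and 1 lower (1.1% beside 2.5% of all genes) against WT. Against δKO, 1 was higher (1.1% beside 4.6%) and 7 lower (7.69% beside 5.56%). In δKO against WT, 5 were higher (5.49% beside 3.65%) and 1 lower (1.1% beside 3.36%). No gene of the list was called with edgeR. DESeq2 on all 9 libraries called 1, Polk, a polymerase that copies past lesions, in TKO against δKO. Polk was at 24.8, 16.2 and 21.9 CPM in WT, 9.33, 14.8 and 9.62 in δKO and 35.7, 47.7 and 19.4 in TKO. Every TKO library of Polk was above every δKO library, and TKO replicate 3 lay within the range of WT. Its log2 fold change against δKO was 1.61 (SE 0.452, unadjusted p = 0.00414, adjusted p = 0.465 from edgeR), with an adjusted p of 0.0104 from DESeq2. Rev1, the partner of such polymerases, differed the other way, at 46.4 to 58.3 CPM in WT, 42.8 to 155 in δKO and 33.1 to 55.3 in TKO (−1.31 against δKO, SE 0.421).

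The gene of this list with the smallest unadjusted p in TKO against WT was Gen1, which like Mus81 cuts joined strands. It was at 23.6, 28.3 and 22.8 CPM in WT, 3.23, 11.7 and 25.1 in δKO and 12.7, 5.67 and 7.86 in TKO. The TKO libraries of Gen1 were below WT and overlapped with δKO (−1.51, SE 0.666, unadjusted p = 0.0432, adjusted p = 1 from edgeR). In δKO against WT it was Rmi2, a subunit of the complex that holds Blm, at 28.5, 44.7 and 38.6 CPM in WT, 179.5, 45.1 and 102 in δKO and 62.1, 22.2 and 56.0 in TKO (1.55, SE 0.503, unadjusted p = 0.00986, adjusted p = 0.699 from edgeR). Top3a, the topoisomerase of that same complex, was at 18.3 to 35.1 CPM in WT, 27.7 to 73.2 in δKO and 15.9 to 34.2 in TKO (1.14 in δKO against WT, SE 0.460). Blm itself was at −0.42 in this comparison (SE 0.369). The mismatch sensor Msh3 was at 22.8 to 33.3 CPM in WT, 42.8 to 47.1 in δKO and 36.2 to 37.0 in TKO, so that the 3 genotypes did not overlap (0.76 in δKO against WT, SE 0.302, unadjusted p = 0.0275, adjusted p = 0.699 from edgeR).

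The targeted kinase genes were measured over whole transcripts, so their counts do not show the loss of single exons. Pik3cb was at 25.5 to 33.9 CPM in TKO and 44.6 to 63.6 in WT, with δKO at 33.3 to 101. Pik3cd was at 71.2 to 73.5 CPM in TKO, 38.5 to 91.2 in δKO and 98.2 to 139 in WT, so both groups that lack it lay below WT. Pik3ca overlapped in all groups, at 52.8 to 68.0 CPM in TKO, 41.3 to 88.2 in δKO and 45.8 to 65.0 in WT.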

How the data were processed

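Reads of 9 libraries, each stated to be a biological replicate with 2 technical runs, were trimmed with Trim Galore 0.3.7, aligned to mm10 with STAR 2.5.1b and counted on genes by the authors, per the submitters' processing notes, and how the runs were joined is not given in the sources used here. The deposited raw counts are whole numbers of reads for 47643 genes. A normalized signal was deposited by the authors as well, and for the 8 libraries whose names match in both tables it equals the raw counts divided by 1 factor per library. The remaining δKO column is numbered 4 in the raw table and 3 in the normalized table, which the limma alternative uses. Samples were grouped by the genotype in their labels, and 1 column, whose number matches no label, was used as an unnumbered δKO library.

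Gene identifiers were matched to GENCODE M21 without their version (47224 of 47643). Genes with few counts were removed with filterByExpr (count minimum 10, minimum total 15), which left 18205. Counts were scaled with TMM factors, and the quasi-likelihood test of edgeR 4.0.16 in R 4.3.3 was applied to a model of the 9 libraries with 1 mean for each genotype. p-values were adjusted over all tested genes by the Benjamini-Hochberg method, and a call needed an adjusted p under 0.05 and a change of more than 2-fold. DESeq2 1.42.0, named in the study's methods, and limma 3.58.1 on log2(value + 1) of the normalized signal were alternatives, beside other scaling factors, filters, a covariate for the number of genes detected, a replicate block, fits on the groups compared alone, the adjusted p without the fold change, and each library left out. No 2 libraries of a genotype agreed within counting error (chi-square per gene 128 to 533). p-values measure only the spread between these libraries.

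The 41 genes, the other lists and the tests were chosen with earlier results of these data known. Full values were given for genes that reached an unadjusted p under 0.05 from edgeR in any comparison, or an adjusted p under 0.05 when DESeq2 was fitted to the 9 libraries. They were also given for the 2 genes of each class with the highest level per kilobase, as the mean of all 9 libraries and not of WT alone. The library values of further genes, among them those that did not overlap and those with the smallest or largest spread, were added after values were seen. From the list of other repair genes at most the 4 with the smallest unadjusted p in each comparison were named. Promoter windows are RefSeq sequences on GRCm38.p6. Proteins and promoters of the remaining 9 genes were not used here.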

Additional observations from a re-analysis of the deposited data

How the results depend on the processing

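The number of called genes was 1 in TKO against WT, 0 in TKO against δKO and 1 in δKO against WT with edgeR. In the same order DESeq2 on all 9 libraries called 125, 546 and 188 genes, and DESeq2 on the groups compared called 574, 267 and 194, among them 1 repair gene (Brip1, in TKO against WT). edgeR on the groups compared called 9 in TKO against WT and 0 in δKO against WT. Repair genes with an unadjusted p under 0.05 numbered 1 in TKO against WT, and 4 with DESeq2 on all 9 libraries, 5 with DESeq2 and 4 with edgeR on the groups compared. In TKO against δKO they numbered 3, and 5 with DESeq2 on all 9 libraries, 1 with edgeR on the groups compared and 1 with a covariate for genes detected. In δKO against WT they numbered 1, and 0 with that covariate and 2 without a filter on low counts. The share of all tested genes at this threshold was computed for the main fit only. The counts under other settings, here and below, therefore cannot be set against all genes. The median log2 fold change of the repair genes was −0.04 in TKO against WT, and −0.10 with limma and −0.12 with the covariate. In TKO against δKO it was −0.15, and −0.009 with upper-quartile factors and −0.10 with at least 10 counts in every library. In δKO against WT it was 0.05, and −0.11 and −0.027 under those settings. Upper-quartile factors shifted the median of all genes by 0.14 in TKO against δKO and by −0.15 in δKO against WT. With the covariate, Slx4 in TKO against WT turned from 0.14 to −0.14 and Brip1 in δKO against WT from −0.16 to 0.12.

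With each library left out in turn, the genes called in TKO against WT numbered 1 to 4, with 4 without δKO replicate 1, in the other comparisons they kept their number (0 and 1), and no repair gene was called. Repair genes with an unadjusted p under 0.05 numbered 1 to 4 in TKO against WT, 1 to 5 in TKO against δKO and 1 to 4 in δKO against WT. The share of all genes was not computed for these fits. In the same order, the median log2 fold change of the repair genes ranged from −0.10 to 0.037, from −0.239 to −0.088 and from −0.051 to 0.086. In TKO against WT, Mre11a ranged from −0.10 to 0.033, Msh6 from −0.27 to 0.14 and Slx4 from −0.007 to 0.296. In TKO against δKO, Xrcc3 ranged from −2.08 to 0.287 and Atm from −0.737 to 0.223. In δKO against WT, Xrcc3 ranged from −0.352 to 1.975, Atm from −0.051 to 0.909 and Brip1 from −0.343 to 0.022. The values of Brca2, Rad50, Parp1, Xrcc5 and Chek1 in TKO against WT also moved by more than 1.5 times, between −0.216 (Chek1) and 0.535 (Xrcc5). Where a genotype was left with 2 libraries, the shared estimate of the spread was used.

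Leaving out δKO replicate 1 turned Xrcc3 and Atm in both comparisons with δKO and Brip1 in δKO against WT, and in TKO against WT leaving out WT replicate 1 turned Msh6 and Mre11a, TKO replicate 3 Mre11a and Brca2 (0.11, and −0.005 to 0.268 over the libraries left out), and WT replicate 3 Slx4. Prkdc in TKO against WT was near 0 (0.001) and lay on either side of it, at −0.005 with upper-quartile factors or at least 10 counts in every library, −0.002 with the replicate block, and −0.108 to 0.144 with each library left out. The Fanconi median in TKO against δKO went from −0.38 to −0.09 without the unnumbered δKO library, −0.22 with upper-quartile factors and −0.13 with the block described next.

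Same-numbered libraries did not deviate together from their genotype means (correlation −0.0929 to 0.108), so the numbers were not taken to pair them. With the replicate number as a block over the numbered libraries, repair genes with an unadjusted p under 0.05 numbered 1 in TKO against WT, 4 in TKO against δKO and 3 in δKO against WT, and 0 repair genes were called. The causes of these differences were not tested.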
